A study of Mus musculus with 9 samples.

Results

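The 10 genes described here, Arntl, Clock, Npas2, Per1, Per2, Per3, Nr1d1, Nr1d2, Dbp and Tef, are core and output genes of the circadian clock, measured in mouse liver by RNA sequencing. They were chosen by gene name in the deposited gene table. Of 52151 rows in that table, 30 carried a member's name, and 10 of these, 1 for each member, held known transcripts. The whole table held 26345 named entries with known transcripts. None of the 10 entries was merged with a neighbouring gene.

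The study asked which long noncoding RNAs change in the liver when mice are fed alcohol. The data are 9 libraries of ribosome-depleted, strand-specific liver RNA, 3 in each of 3 groups. Pair-fed mice (PF) received an isocaloric control liquid diet. Alcohol-fed mice (AF) received the Lieber-DeCarli diet, a liquid diet that carries ethanol. The third group (AF with MNA) received the Lieber-DeCarli diet and a daily intraperitoneal injection of MNA at 50 mg/kg. The labels do not spell out MNA and name no vehicle injection for PF or AF, so that the compound and the injection cannot be told apart. All groups were fed for 5 weeks, and the age label reads 8 weeks. The strain label is C57BL/6 for PF and AF, and C57BL/7, C57BL/8 and C57BL/9 for the 3 AF with MNA samples. The methods of the study describe male C57BL/6J mice killed after a fast. The time of day at which livers were taken is stated neither in the labels nor in the methods. The labels number the replicates and do not say that each is a separate animal, so that the p-values measure only the spread between these samples.

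The liver clock is a feedback loop of transcription factors. BMAL1 (the product of Arntl) pairs with CLOCK or NPAS2 and binds E-boxes in the promoters of the Per and Cry genes, whose products return to the nucleus and block the pair. A connected loop runs through the nuclear receptors REV-ERB alpha and beta (Nr1d1 and Nr1d2), which repress Arntl at ROR elements, and the PAR bZIP factors DBP and TEF carry the rhythm to genes with D-boxes. Many of these RNAs rise and fall strongly over the day in liver, and feeding time, fasting, glucocorticoids and body temperature can shift them, so a level from a single time of day is a point on a daily curve.

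Promoter sequence from RefSeq (build GRCm38.p6) was searched for these elements, and the matches are printed because they mark where the loop could connect its own members. Windows ran from 250 bases before to 50 bases after each annotated start, and 9 of the 10 members had at least 1 window, 14 windows in all (Per2 had none). Both strands were searched for the E-box CACGTG, the E-prime box CACGTT, the D-box in its forms TTATGTAA and TTACGTAA, and the ROR element by its consensus. E-boxes were present in 7.15% of all 32851 windows in the table, E-prime boxes in 4.68%, D-boxes in 1.06% and ROR elements in 0.384%. In the stretches below, written 5′ to 3′ on the gene's strand, capitals mark the match and position 0 is the annotated start.
Arntl, ROR element at positions 26 to 36, chr7:113207528-113207557, plus strand: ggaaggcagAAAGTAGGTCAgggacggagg
Per1, E-box at positions -166 to -161, chr11:69098758-69098813, plus strand: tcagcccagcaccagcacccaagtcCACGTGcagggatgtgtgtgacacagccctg
Per3, D-boxes at positions -205 to -198 and -158 to -151, chr4:151044791-151044895, minus strand: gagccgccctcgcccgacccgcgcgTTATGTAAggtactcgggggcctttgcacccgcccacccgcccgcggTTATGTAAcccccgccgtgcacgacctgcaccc
Nr1d1, E-prime box at positions -28 to -23, chr11:98775378-98775430, minus strand: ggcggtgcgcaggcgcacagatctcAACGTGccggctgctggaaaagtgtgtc
Tef, E-box at positions -127 to -122, chr15:81802521-81802576, plus strand: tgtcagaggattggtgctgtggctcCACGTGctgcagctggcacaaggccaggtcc
The match in Nr1d1 lies on the opposite strand, and Tef had a further E-box in the window of another start. No letters of these motifs were found in the windows of Clock, Npas2, Nr1d2 and Dbp, which says nothing about sites elsewhere in those genes. A match is a string of letters and was not measured as a bound site here.

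Levels are given as FPKM, fragments scaled to the length of the transcript and to the library's total, which can be compared between genes. Over the 9 libraries the mean level ran from 17.3 FPKM for Nr1d1 through 12.3 for Dbp, 8.24 for Tef, 6.97 for Per1, 4.98 for Per2, 4.59 for Nr1d2, 3.97 for Clock and 3.31 for Per3 to 0.516 for Arntl and 0.0344 for Npas2. Neighbours in this order from Nr1d1 down to Per3 had overlapping ranges over the libraries. Per3 (1.08 to 5.12 FPKM) and Arntl (0.20 to 1.09 FPKM) met only at their ends, and Npas2 did not exceed 0.12 FPKM in any library, below every value of Arntl. The range over the libraries differed between genes. Dbp spanned 7.93-fold from its lowest to its highest library, Nr1d1 5.99-fold and Arntl 5.45-fold, whereas Per1 spanned 1.54-fold and Nr1d2 1.81-fold.

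**Figure D1:**
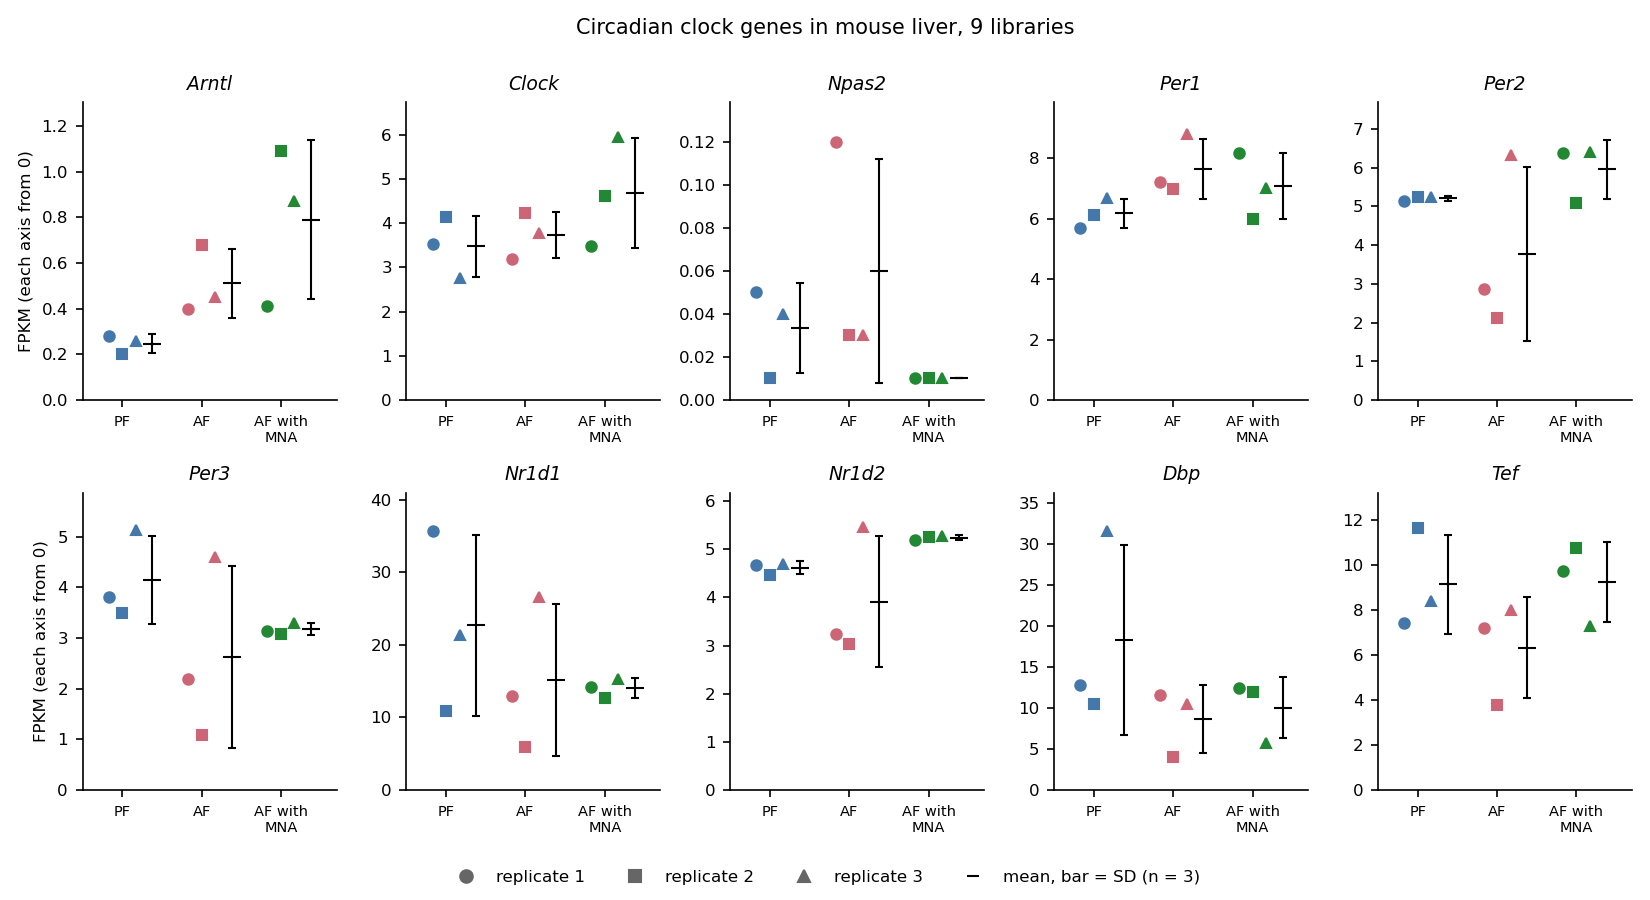
FPKM of the 10 clock genes (vertical axes, each from 0) in the PF, AF and AF with MNA libraries. Symbols are single libraries, with the group mean and SD (n = 3) beside them; AF replicate 2, the square, is the lowest of the 9 libraries for Per2, Per3, Nr1d1, Nr1d2, Dbp and Tef.

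The samples as a whole were liver and held similar depth. All 35 genes of 7 marker lists were present in the table. Summed hepatocyte markers lay between 13840 and 20744 FPKM, Kupffer cell markers between 43.2 and 79.0 FPKM, and lymphocyte and neutrophil markers at 2.03 FPKM or less. Sinusoidal endothelial sums were 20.1 to 23.4 FPKM in PF, 23.8 to 33.4 in AF and 27.9 to 36.0 in AF with MNA. Cholangiocyte sums were 3.27 to 4.31, 4.86 to 9.12 and 3.34 to 6.33 in that order. Both sums were wholly higher in AF than in PF. Taken singly, only Spp1 and Sox9 of these lists were wholly higher, and their other markers overlapped between AF and PF. The part of these cell types in the levels of the clock genes was not tested. Stellate cell sums overlapped between the groups, from 28.3 to 44.3 FPKM. Relative depth ran from 0.870 to 1.24 times that of PF replicate 1. AF replicate 2 stood apart: it was the lowest of the 9 libraries in 24.6% of 12252 genes averaging 0.5 FPKM or more, against 7.26% to 10.4% for each of the other 8 libraries. It had the highest Kupffer sum, and among the hepatocyte markers Alb and Ttr were at their lowest there and Hnf4a and Tat at their highest. AF replicate 3 was the highest of the 9 libraries in 16.1% of these genes, against 7.27% to 12.3% for the others. In bulk liver, fewer cells of a type and less RNA per cell cannot be told apart.

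Alcohol-fed against pair-fed liver is the study's main comparison. None of the 8 members tested in it passed limma's test at an adjusted p of 0.05, where 0.326% of the 12268 tested genes did, and none passed the threshold of the methods (log2 ratio of group means beyond 1 in either direction, and limma's p below 0.05 before adjustment), which 4.3% of tested genes passed. A mean of 0.5 FPKM over the 6 libraries was required for testing, which left Arntl and Npas2 below. The adjusted p-values of the 8 lay between 0.497 and 0.878, and 0 had an unadjusted limma p under 0.05, which 1433 of all tested genes had. Among the 8 members averaging 2 FPKM or more over all libraries, 6 were lower in AF and 2 higher by the ratio of group means, with a median log2 ratio of -0.50 beside -0.03 over all tested genes, of which 53.5% were lower in AF by the same ratio. Values of the AF libraries lay apart from each other: the median within-group SD of these members was 0.57 on the log2(FPKM + 1) scale in AF, 0.23 in PF and 0.18 in AF with MNA, where the median over all genes was 0.21, 0.16 and 0.16.

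Of the activators, Arntl (chr7:113207465-113314126, plus strand) encodes BMAL1, the partner that both arms of the loop need. It measured 0.28, 0.20 and 0.26 FPKM for PF, 0.40, 0.68 and 0.45 for AF, and 0.41, 1.09 and 0.87 for AF with MNA. Every AF and every AF with MNA library lay above every PF library. Groups did not overlap for 2 of the 10 members between AF and PF, Arntl and Per1, both higher in AF; 18.3% of tested genes had groups that did not overlap in that comparison. The mean of Arntl in AF, 0.510 ± 0.149 FPKM (SD, n = 3), was 2.07-fold that in PF, 0.247 ± 0.0416, a log2 ratio of 1.05. It was too low for the test as set, and without the filter its limma p was 0.0295 and its adjusted p 0.523.

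Clock (chr5:76209868-76304792, minus strand) encodes the usual partner of BMAL1. Its level was 3.53, 4.15 and 2.77 FPKM for PF, 3.19, 4.24 and 3.78 for AF, and 3.48, 4.61 and 5.96 for AF with MNA. The groups overlapped, and AF differed from PF by 0.08 on the log2(FPKM + 1) scale (95% interval -0.30 to 0.47). Npas2 (chr1:39193731-39363236, plus strand), which can take the place of Clock, was listed at 0.05, 0.01 and 0.04 FPKM for PF, 0.12, 0.03 and 0.03 for AF, and 0.01 for each AF with MNA library. The table is rounded to steps of 0.01 FPKM, so that no fold is given for these levels, and Npas2 did not meet the filter in any comparison.

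The 3 Per genes encode the repressors that pair with the CRY proteins. Per1 (chr11:69095217-69109960, plus strand), which responds fast to glucocorticoids, measured 5.71, 6.14 and 6.68 FPKM for PF, 7.21, 6.98 and 8.80 for AF, and 8.19, 6.01 and 7.03 for AF with MNA. All 3 AF libraries lay above all 3 PF libraries. The group means were 7.66 ± 0.991 and 6.18 ± 0.486 FPKM (SD, n = 3), a difference of 0.27 on the log2(FPKM + 1) scale (95% interval -0.05 to 0.59) with an adjusted p of 0.497 by limma, and 0.18 without AF replicate 3. It was the narrowest of the members, and only in Per1 and Clock did the AF mean of a tested member exceed that of PF.

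Per2 (chr1:91415982-91459324, minus strand) was at 5.14, 5.25 and 5.25 FPKM for PF, 2.87, 2.13 and 6.33 for AF, and 6.39, 5.08 and 6.42 for AF with MNA. PF libraries were nearly equal, with an SD of 0.0635 FPKM, while AF fell into a pair of low libraries and a high one, replicate 3. AF differed from PF by -0.48 on the log2(FPKM + 1) scale (95% interval -1.21 to 0.26; adjusted p = 0.596 by limma). Without AF replicate 3 the log2 ratio was -1.06 and Per2 passed the threshold of the methods (coefficient -0.84, adjusted p = 0.138 by limma), and without AF replicate 2 the coefficient was -0.22 (adjusted p = 0.797).

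Per3 (chr4:151003652-151044665, minus strand), whose product plays a smaller part in the loop, followed the same order of libraries within AF. Its values were 3.80, 3.50 and 5.12 FPKM for PF, 2.19, 1.08 and 4.59 for AF, and 3.13, 3.08 and 3.30 for AF with MNA. The difference between AF and PF was -0.61 on the log2(FPKM + 1) scale (95% interval -1.46 to 0.24; adjusted p = 0.568 by limma). Without AF replicate 3 it also passed the threshold of the methods, at a log2 ratio of -1.34 (coefficient -0.98, adjusted p = 0.215), and without AF replicate 2 the coefficient was -0.27 (adjusted p = 0.747).

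Nr1d1 (chr11:98767932-98775333, minus strand) encodes REV-ERB alpha, a repressor with a deep daily swing in liver. It measured 35.71, 10.95 and 21.37 FPKM for PF, 12.92, 5.96 and 26.55 for AF, and 14.25, 12.65 and 15.35 for AF with MNA. The ranges of PF and AF overlapped, with PF replicate 1 above and AF replicate 2 below all other libraries, and AF with MNA was tight, with a coefficient of variation of 9.64% against 54.8% in PF and 69.2% in AF. AF against PF gave -0.63 on the log2(FPKM + 1) scale, with a 95% interval of -2.04 to 0.78. Left-out libraries moved that difference from -0.13 (without AF replicate 2) and -0.24 (without PF replicate 1) to -1.05 (without PF replicate 2) and -1.12 (without AF replicate 3). Nr1d2 (chr14:18204054-18239127, minus strand), for REV-ERB beta, was at 4.68, 4.46 and 4.70 FPKM for PF, 3.24, 3.03 and 5.47 for AF, and 5.19, 5.25 and 5.28 for AF with MNA. PF and AF with MNA were each nearly constant, and AF replicate 3 stood above the other AF libraries. The difference between AF and PF was -0.23 on the same scale (95% interval -0.70 to 0.25), and it was -0.14 without AF replicate 1, -0.10 without AF replicate 2 and -0.44 without AF replicate 3.

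Dbp (chr7:45705088-45710203, plus strand), a PAR bZIP activator and direct E-box target, was at 12.8, 10.5 and 31.6 FPKM for PF, 11.7, 3.99 and 10.5 for AF, and 12.4, 11.9 and 5.74 for AF with MNA. PF replicate 3 was the highest of the 9 libraries, and the remaining PF values overlapped those of AF. The AF mean of 8.70 ± 4.12 FPKM (SD, n = 3) was 0.475 times the PF mean of 18.3 ± 11.6, a log2 ratio of -1.07, with an adjusted p of 0.531 by limma. On the log2(FPKM + 1) scale the Dbp difference of -0.95 was -0.49 without PF replicate 3 and -0.52 without AF replicate 2. Tef (chr15:81802421-81826863, plus strand), the related factor, was at 7.44, 11.63 and 8.39 FPKM for PF, 7.22, 3.76 and 7.99 for AF, and 9.72, 10.75 and 7.27 for AF with MNA. AF replicate 2 lay below the other 8 libraries, which spanned 7.22 to 11.63 FPKM. AF and PF differed by -0.50 on the log2(FPKM + 1) scale (95% interval -1.18 to 0.17), by -0.22 without AF replicate 2 and by -0.33 without PF replicate 2.

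**Figure D2:**
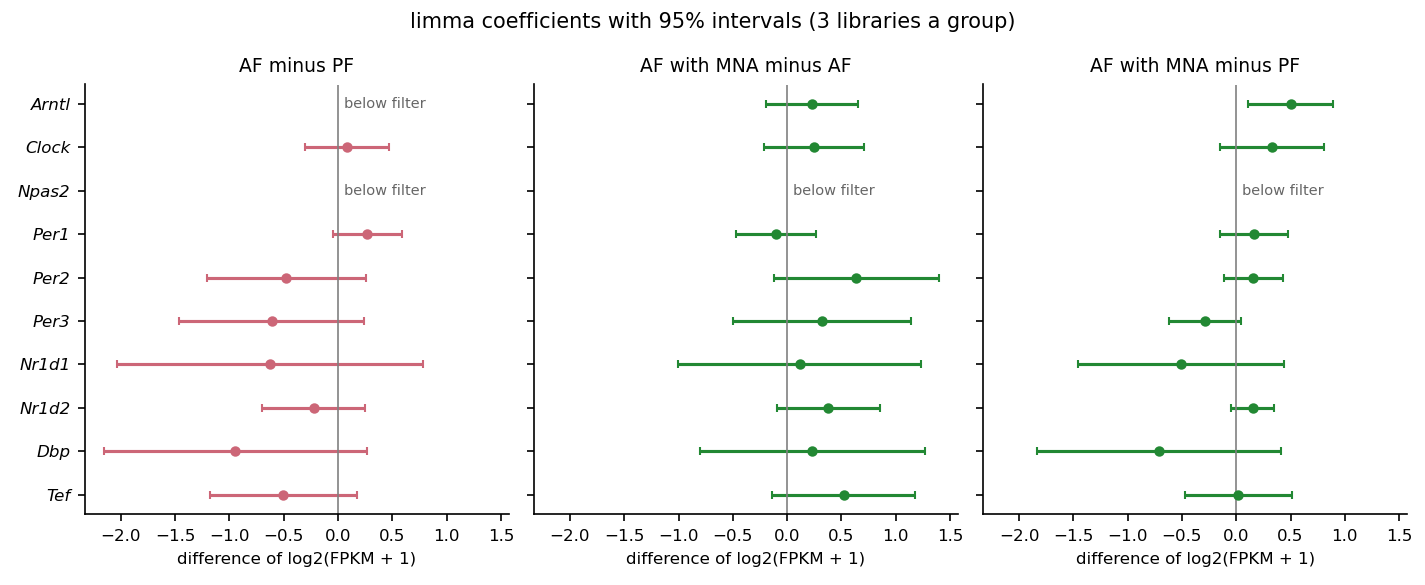
limma coefficients of the clock genes with 95% intervals (horizontal axis, difference of log2(FPKM + 1); 3 libraries a group) in the 3 comparisons. Every interval crosses 0 except that of Arntl between AF with MNA and PF (0.11 to 0.89); Npas2 met the filter on low values in none of them and Arntl not between AF and PF.

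AF with MNA against AF sets the mice labelled as injected with MNA beside those on the alcohol diet with no injection named, and it shares the AF libraries with the comparison above. No member passed at an adjusted p of 0.05 and none passed the threshold of the methods, beside 0.0491% and 1.98% of the 12214 tested genes. The lowest adjusted p of the 9 tested members was 0.940 by limma, and 0 of them had an unadjusted p under 0.05, beside 637 of all tested genes. Among the 8 members averaging 2 FPKM or more over all libraries, 6 were higher in AF with MNA and 2 lower by the ratio of group means. By the same ratio 48.6% of all tested genes were lower. Per2 differed by 0.64 on the log2(FPKM + 1) scale (95% interval -0.12 to 1.39), Tef by 0.52 (-0.14 to 1.18), Nr1d2 by 0.38 (-0.10 to 0.85) and Arntl by 0.23 (-0.19 to 0.65). Per3 differed by 0.32, Clock by 0.25, Dbp by 0.23 and Per1 by -0.10, each with an interval across 0. Nr1d1 had a log2 ratio of group means of -0.10 and a coefficient of 0.12, so that its direction depends on how the libraries are averaged. Without AF replicate 3, Per2 passed the threshold of the methods at a log2 ratio of 1.25 (coefficient 0.99, adjusted p = 0.309), and without AF replicate 2 its coefficient was 0.38. The difference of Tef was 0.24 without AF replicate 2, that of Nr1d2 0.59 without AF replicate 3, and that of Arntl 0.11 without AF with MNA replicate 2 and 0.39 without AF with MNA replicate 1. Npas2 was the only member whose groups did not overlap, lower in AF with MNA at the rounding step of the table, beside 10.1% of tested genes.

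AF with MNA against PF shares its libraries with both comparisons above. No member passed at an adjusted p of 0.05, beside 0.432% of 12276 tested genes, and Arntl alone passed the threshold of the methods, beside 3.89%. Arntl was also the 1 member with an unadjusted limma p under 0.05, which 1776 tested genes had. Arntl was 3.20-fold higher, at 0.790 ± 0.347 against 0.247 ± 0.0416 FPKM (SD, n = 3), a log2 ratio of 1.68. On the log2(FPKM + 1) scale, which shrinks changes of low genes, the difference was 0.50 (95% interval 0.11 to 0.89; adjusted p = 0.273 by limma). Arntl met the filter in this comparison through the AF with MNA libraries, since its PF mean was below 0.5 FPKM. The call was lost without PF replicate 2 (log2 ratio 1.55, adjusted p = 0.431), without AF with MNA replicate 2 (1.38, adjusted p = 0.470) or without AF with MNA replicate 3 (1.60, adjusted p = 0.465). Without AF with MNA replicate 1, the library at 0.41 FPKM, the log2 ratio was 1.99 (adjusted p = 0.120).

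Groups did not overlap for 3 of the 10 members in this comparison, beside 21.4% of tested genes. Arntl and Nr1d2 were higher in AF with MNA, and Per3 was lower. Nr1d2 differed by 0.15 on the log2(FPKM + 1) scale (95% interval -0.05 to 0.35; adjusted p = 0.468 by limma), from a mean of 4.61 to one of 5.24 FPKM. Per3 differed by -0.29 (95% interval -0.62 to 0.04; adjusted p = 0.409), from 4.14 to 3.17 FPKM, and by -0.16 without PF replicate 3. For Nr1d1, the log2 ratio of -0.69 rested on PF libraries from 10.95 to 35.71 FPKM, and without PF replicate 2 it was -1.02, past the threshold of the methods (coefficient -0.93, adjusted p = 0.276), while without PF replicate 1 the coefficient moved from -0.51 to -0.12 (adjusted p = 0.890). The remaining members differed by 0.33 for Clock, 0.16 for Per1, 0.16 for Per2, -0.71 for Dbp and 0.02 for Tef, each with an interval across 0. Dbp was at -0.25 without PF replicate 3 and -0.39 without AF with MNA replicate 3, Clock at 0.21 without PF replicate 3 and 0.17 without AF with MNA replicate 3, Per1 at 0.066 and 0.26 without AF with MNA replicates 1 and 2, and Per2 at 0.25 without AF with MNA replicate 2.

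Libraries were also compared across the members. AF replicate 2 was the lowest of the 9 libraries for 6 of the 10 members, beside the 24.6% of all genes given above. These were Per2, Per3, Nr1d1, Nr1d2, Dbp and Tef. The same library was the highest of its group for 2 of the 10 members, Arntl and Clock, beside 21.6% of all genes averaging 0.5 FPKM or more. AF replicate 3 was the highest AF library for 6 of the 10 members, beside 43.6% of all genes averaging 0.5 FPKM or more. Over the 9 libraries, Pearson's r of log2(FPKM + 1) was 0.97 between Per2 and Nr1d2, 0.84 between Per2 and Per3, 0.80 between Per3 and Nr1d1, 0.72 between Arntl and Clock, -0.51 between Arntl and Dbp and -0.73 between Clock and Dbp. Of the 36 pairs among the 9 members above 0.5 FPKM, 22 had a positive r and 14 a negative one. These are descriptions of 9 libraries in 3 groups, and differences between groups enter them. Without AF replicate 2 the values were 0.94, 0.60, 0.61, 0.71, -0.48 and -0.83 in that order, and 7 of the 36 pairs changed sign. The share of AF replicate 2's general difference in these values was not tested.

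**Figure D3:**
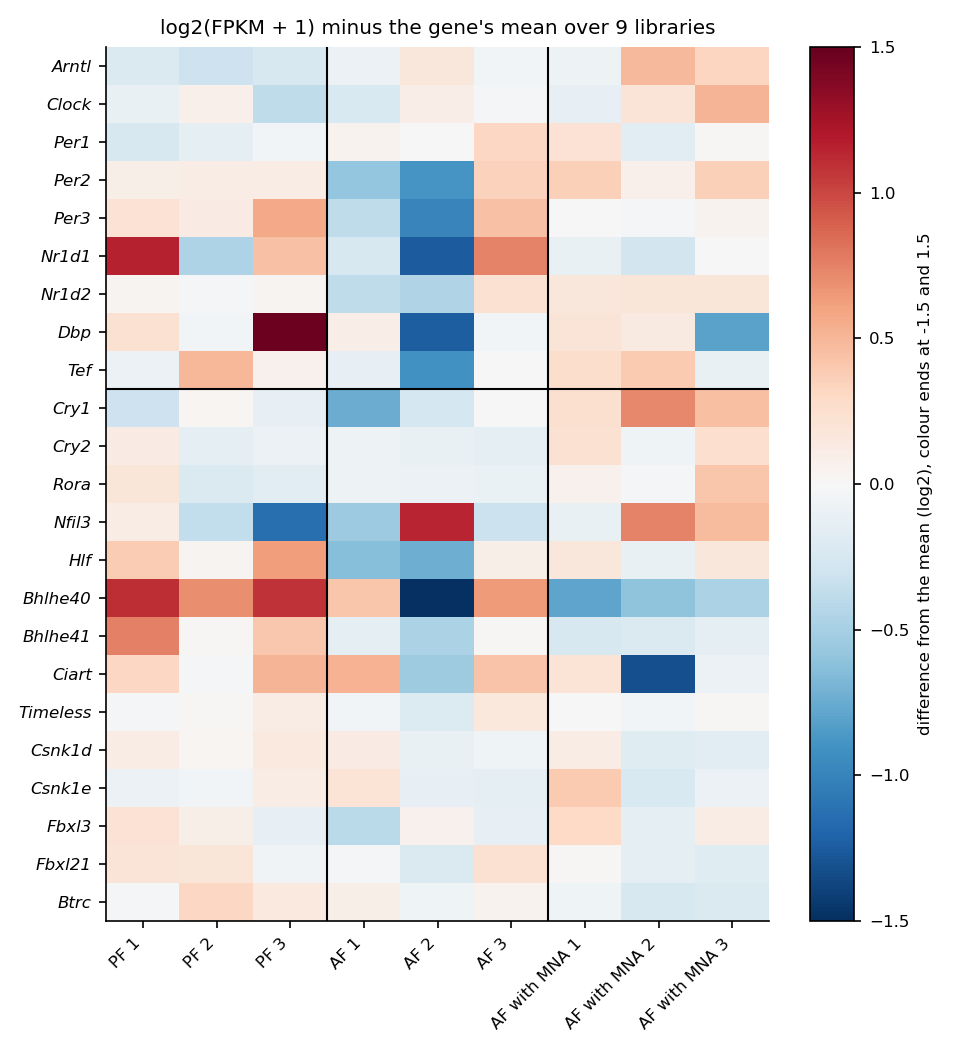
log2(FPKM + 1) minus each gene's mean over the 9 libraries (columns) for 9 clock genes described here (above the line; Npas2 is left out as it is near 0) and 14 other clock genes (below). Red is above the gene's mean and blue below, with colours ending at -1.5 and 1.5; AF replicate 2 is blue for Per2, Per3, Nr1d1, Nr1d2, Dbp, Tef and Bhlhe40 and red for Nfil3.

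Across the transcriptome, the genes whose pattern over the 9 libraries was most like that of Arntl, among 7381 genes averaging 2 FPKM or more, were Prdx1 (r = 0.97), Serpina3g (0.96), Gm15487 (0.96), Wrnip1 (0.95) and Adrm1 (0.94). The most opposite were Dhx34 (-0.97), Parva (-0.95), Xbp1 (-0.94), Gm561 (-0.94) and Bivm (-0.93). For Dbp the most like were Dock8 and Slc6a6 (both 0.95), Myo10 (0.94), Tjp1 and Fyco1 (both 0.91), and the most opposite Ufd1l (-0.94), Siglece and U2af1 (both -0.90), Napa (-0.89) and Ptp4a1 (-0.88). No clock gene was on either list. With 9 points and this many genes, the values are a ranking and nothing more.

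Of 14 other clock genes, 14 were tested between AF and PF, 12 between AF with MNA and AF, and 14 between AF with MNA and PF. Between AF and PF 13 of the 14 were lower in AF and 1 higher by the limma coefficient, beside 54.5% lower of all tested genes, with a median log2 ratio of -0.17 beside -0.03 over all tested genes. None had an adjusted p under 0.05, and Bhlhe41, a repressor of E-box genes, passed the threshold of the methods. Bhlhe41 was at 1.78, 0.67 and 1.17 FPKM for PF and 0.50, 0.18 and 0.67 for AF (log2 ratio -1.42, adjusted p = 0.391 by limma), and it met the filter through PF, since its AF mean was 0.450 FPKM. Hlf, the third PAR bZIP factor, chosen here after its values were seen, was at 5.47, 4.11 and 6.68 FPKM for PF and 2.20, 1.99 and 4.29 for AF, with the low pair in the same libraries as that of Per2 (log2 ratio -0.94, adjusted p = 0.356).

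Bhlhe40, the related repressor that also responds to feeding and low oxygen, was the clock gene with the clearest difference, between AF with MNA and PF. It measured 17.5, 13.0 and 17.3 FPKM for PF, 10.55, 1.05 and 12.4 for AF, and 3.98, 4.67 and 5.20 for AF with MNA. Both alcohol groups lay wholly below PF, where 18.3% of tested genes were wholly apart for AF and 21.4% for AF with MNA. Bhlhe40 had a log2 ratio of -0.99 between AF and PF (adjusted p = 0.532 by limma) and did not pass the threshold of the methods there. Between AF with MNA and PF it fell by 1.59 on the log2(FPKM + 1) scale (adjusted p = 0.0229 by limma), from 15.9 ± 2.52 to 4.62 ± 0.612 FPKM (SD, n = 3). That call was lost in 5 of the 6 fits that left out a library and in 2 fits of another design, while the difference stayed between -1.50 and -1.76 under all alternatives run. Bhlhe41 passed the threshold of the methods in the same comparison (log2 ratio -1.48, adjusted p = 0.273), again through its PF level, with a mean of 0.433 FPKM in AF with MNA.

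Cry1, which encodes a partner of the PER proteins, was at 2.20, 3.06 and 2.64 FPKM for PF, 1.37, 2.32 and 2.98 for AF, and 3.70, 5.55 and 4.42 for AF with MNA. The AF with MNA libraries lay above all others, where 10.1% of tested genes were wholly apart from AF and 21.4% from PF. Cry1 passed the threshold of the methods against AF (log2 ratio 1.04, adjusted p = 0.940 by limma) and not against PF (log2 ratio 0.79, adjusted p = 0.203). Nfil3, the repressor that competes with DBP and TEF at D-boxes, also chosen after its values were seen, was at 3.83, 2.44 and 1.03 FPKM for PF, 2.04, 8.85 and 2.57 for AF, and 3.13, 6.46 and 5.20 for AF with MNA. Its highest library was AF replicate 2, in which Dbp and Tef were lowest, and its lowest was PF replicate 3, in which Dbp was highest.

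**Figure D4:**
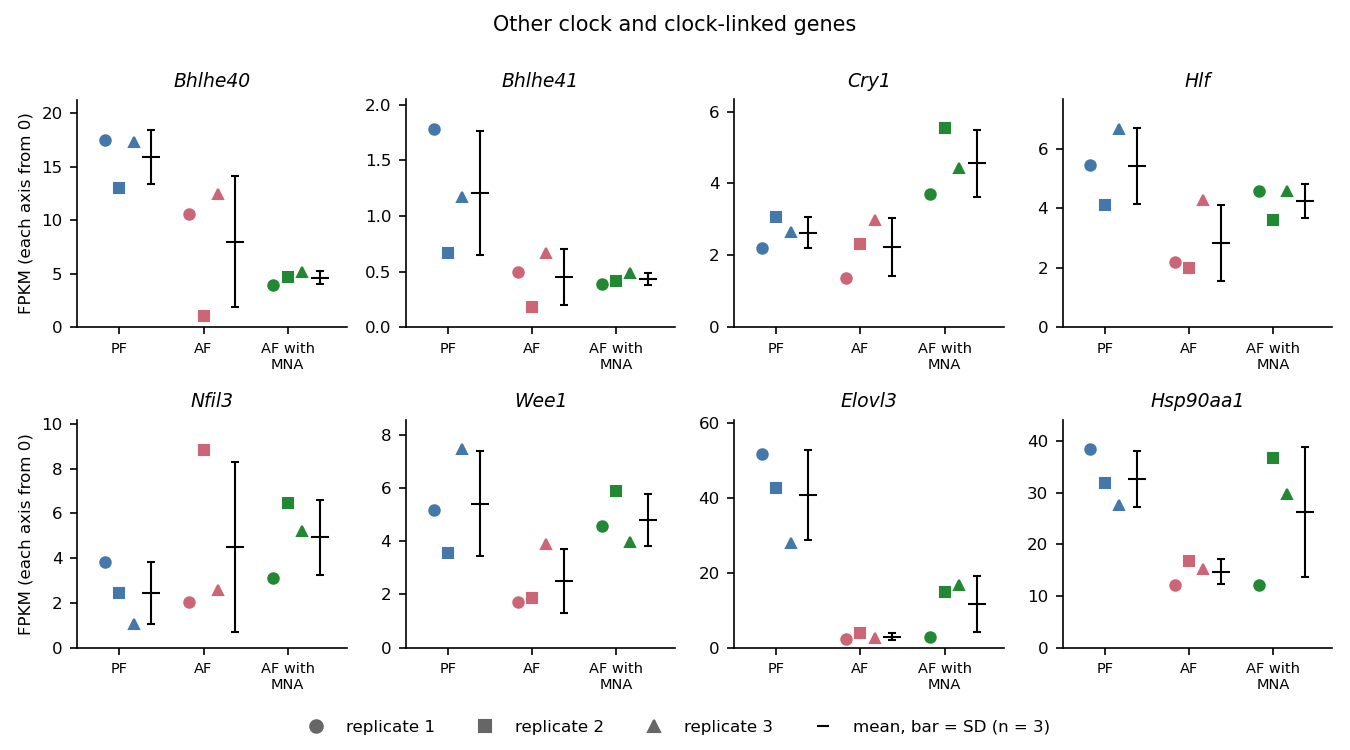
FPKM of 8 further genes tied to the clock (vertical axes, each from 0) by group. Symbols are single libraries, with the group mean and SD (n = 3) beside them; all PF values of Bhlhe40 and Elovl3 lie above all values of the other groups.

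Among 10 liver genes known to follow the clock, all 10 were tested in each comparison. Between AF and PF, 6 of them were higher in AF and 4 lower by the limma coefficient, beside 54.5% lower of all tested genes. An adjusted p under 0.05 was reached by 1 of the 10, beside 0.326% of all tested genes, and 2 passed the threshold of the methods, both lower in AF, beside 4.3%. Elovl3, a fatty acid elongase with a strong daily rhythm in males, fell from 40.7 ± 12.0 to 2.93 ± 0.923 FPKM (SD, n = 3; log2 ratio -3.80, adjusted p = 0.00730 by limma). Wee1, a cell cycle kinase and E-box target, went from 5.41 ± 1.98 to 2.50 ± 1.21 FPKM (log2 ratio -1.11, adjusted p = 0.365), and its low AF libraries were replicates 1 and 2, as for Per2. In AF with MNA, Elovl3 measured 2.93, 14.8 and 16.8 FPKM and passed the threshold of the methods against AF (log2 ratio 1.98, adjusted p = 0.940 by limma) and against PF (log2 ratio -1.82, adjusted p = 0.265). The call against AF was lost in 5 of the 6 fits that left out a library. Insig2, which restrains cholesterol synthesis and was chosen after its values were seen, was at 5.27, 5.78 and 6.42 FPKM for PF and 7.52, 20.9 and 8.13 for AF, wholly higher in AF, as 18.3% of tested genes were wholly apart in either direction (log2 ratio 1.07, adjusted p = 0.456). Its log2 ratio was 0.43 without AF replicate 2 and 1.32, past the threshold of the methods, without AF replicate 1 (adjusted p = 0.491 by limma). The median log2 ratio of the 10 genes was 0.06 between AF and PF, 0.18 between AF with MNA and AF, and -0.16 between AF with MNA and PF, beside -0.03, 0.01 and -0.02 over all tested genes.

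Genes that respond to cues able to shift the clock were counted beside the members. Over all tested genes the median log2 ratio was -0.03 between AF and PF and 0.01 between AF with MNA and AF, and 4.3% and 1.98% passed the threshold of the methods. By the limma coefficient, 54.5% of tested genes were lower in AF than in PF and 47.6% lower in AF with MNA than in AF. All 5 glucocorticoid-responsive genes, Per1 among them, were higher in AF than in PF, with a median log2 ratio of 0.73. Sgk1 passed the threshold of the methods, at 2.07, 3.20 and 2.62 FPKM for PF and 7.22, 6.16 and 3.83 for AF (log2 ratio 1.13, adjusted p = 0.252 by limma), and none of the 5 had an adjusted p under 0.05. All 5 were lower in AF with MNA than in AF, with a median of -0.33 and none past either threshold, and both counts rest on the same AF libraries. Of 7 temperature-responsive genes, 6 were tested (Hspa1b had no entry of its own). Lower in AF than in PF were 4 of them, Hsp90aa1, Hspa8, Hspa1a and Hsph1. Higher were 2, Cirbp and Rbm3, and the median over the 6 was -0.80. Hsp90aa1 went from 32.7 ± 5.51 to 14.7 ± 2.41 FPKM (SD, n = 3; log2 ratio -1.16, adjusted p = 0.0999) and passed the threshold of the methods. Between AF with MNA and AF, which rests on the same AF libraries, the same 4 were higher and the same 2 lower, with a median of 0.71. Of these, Hspa1a (log2 ratio 2.74) and Hsph1 (1.13) passed the threshold of the methods upward, with adjusted p-values of 0.940 by limma. The part of these cues in the levels of the clock genes was not tested.

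Reads inside the Arntl gene were also listed outside its main entry. Of the 20 rows that carried a member's name and held only assembled transcripts, 18 were named for Arntl, 1 for Per2 and 1 for Tef. Summed over the 18 rows, the level was 1.07, 2.14 and 0.76 FPKM for PF, 0.86, 6.83 and 7.43 for AF, and 15.9, 2.26 and 1.23 for AF with MNA. The order differed from that of the gene entry, whose lowest AF with MNA library was replicate 1, the library with 12 of the 18 rows above 0. In the table of lncRNA transcripts, 9 lay within Arntl, 8 of them on its strand, and 7 were single-exon assembled transcripts named for Arntl. Intronic lncRNA transcripts of all genes summed to 9433 FPKM in AF replicate 3 and 8934 in AF with MNA replicate 1, and to between 2477 and 4937 in the other 7 libraries. The part of this in the Arntl rows was not tested.

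**Figure D5:**
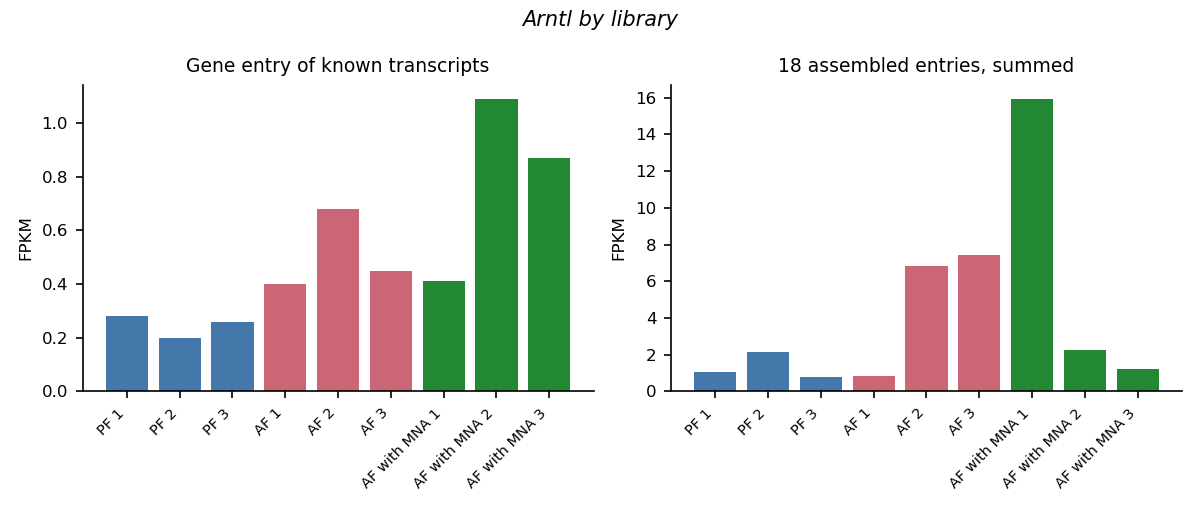
Arntl in each library as FPKM (vertical axes from 0) of its gene entry (left) and of 18 assembled entries named for Arntl, summed (right). The left panel rises above PF in all AF and AF with MNA libraries, and the right panel peaks at 15.9 FPKM in AF with MNA replicate 1.

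Clock overlapped 1 known lncRNA, Gm43658, on its own strand, and Tef 1, Gm17597, on the opposite strand near its start. Summed over the 9 libraries these reached 3.13 and 3.33 FPKM. Circular RNAs gave almost nothing for these genes: of 4486 circRNAs with 17959 junction reads over all libraries, 3 came from members, 2 from Nr1d2 with 2 reads and 1 read, and 1 from Npas2 with 1 read. At these counts no difference between groups was detectable.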

How the data were processed

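Liver RNA of 3 PF, 3 AF and 3 AF with MNA samples was ribosome-depleted and sequenced from both ends. The deposited gene and lncRNA tables hold FPKM values that the authors made with StringTie, rounded to 0.01 for genes. The lncRNA table also gives read coverage per transcript as deposited, and the circRNA table holds junction read counts and a normalized signal made by the authors. Per the labels, the tools were cutadapt 1.9, FastQC, HISAT2, StringTie 1.3.4, edgeR and TopHat, with no role given; the genome build is not given in the sources used here, and gene positions were taken from GENCODE for GRCm38. No gene counts were used, so that the replicate spread sets the precision; relative depth came from the constant between circRNA counts and signal, and it ran from 0.870 to 1.24.

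Named entries holding known transcripts were kept. log2(FPKM + 1) values of genes averaging 0.5 FPKM or more in the 6 libraries of a comparison were fitted with limma 3.58.1 in R 4.3.3 (lmFit, eBayes with trend, two-sided, Benjamini-Hochberg over all tested genes). The methods' rule, a log2 ratio beyond 1 and p below 0.05 before adjustment, was applied beside it, with limma in place of Ballgown. An exact permutation test of 3 against 3 cannot go below p = 0.1 and was not used. The fits were tested on simulated data. All members were named. Genes of the other lists were named when they passed either rule. Exceptions were Hlf, Nfil3 and Insig2, marked in the text, and the temperature-responsive genes, named by direction. The members and lists were chosen with earlier results of these data known. The tables' columns were all matched to samples. Alternatives were another pseudocount, other filters, scaling, design and each library left out.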

Additional observations from a re-analysis of the deposited data

How the results depend on the processing

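No member had an adjusted p under 0.05 in any comparison under any alternative, so that count stayed at 0; the lowest adjusted p of a member over 362 alternative values was 0.120. The count of members past the threshold of the methods, 0 between AF and PF, was 1 with no filter (Arntl), 1 with the replicate number as a block (Dbp, adjusted p = 0.397), and 0 to 2 with a library left out. Between AF with MNA and AF it was 0, and 0 to 1 with a library left out. Between AF with MNA and PF the count of 1 (Arntl) became 0 with the limma coefficient as the fold change, 0 with a mean of at least 2 FPKM, 0 with all gene entries, and 0 to 1 with a library left out. With the replicate block it stayed at 1, and the block changed no other member's call. Same-numbered libraries of different groups had correlations of their deviations from -0.08 to 0.06, and differently numbered ones from -0.12 to 0.097. With 3 libraries a group, these values cannot decide whether the numbers pair the samples.

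Of the 362 alternative values of the members' differences, 354 kept their direction and 8 did not, each in a fit that left out a library. Clock between AF and PF ranged from -0.034 to 0.19, and between AF with MNA and AF Per3 from -0.019 to 0.69, Nr1d1 from -0.38 to 0.61 and Dbp from -0.19 to 0.55. Tef between AF with MNA and PF ranged from -0.10 to 0.19. The adjusted p of Bhlhe40 between AF with MNA and PF reached 0.357 with all 9 libraries in the fit and 0.158 with the replicate block; Elovl3 between AF and PF kept an adjusted p of at most 0.0479. Of 12 calls of other genes at the threshold of the methods, 4 held in every fit that left out a library (Elovl3 and Hsp90aa1 between AF and PF, Hspa1a between AF with MNA and AF, Bhlhe40 between AF with MNA and PF). The other 8 were lost in 1 to 5 of 6 such fits: Bhlhe41 and Wee1 between AF and PF in 4 each, without PF replicates 1 or 3 or AF replicates 1 or 2; Sgk1 in 2, without PF or AF replicate 1; Cry1 in 2, without AF replicate 1 or AF with MNA replicate 2; and Elovl3 against PF in 1, without PF replicate 1. Elovl3 against AF was lost in 5, Hsph1 in 3 and Bhlhe41 between AF with MNA and PF in 3.

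Over all genes, the 40 calls between AF and PF at an adjusted p under 0.05 became 25 with no filter, 86 with all 9 libraries and 18 with the block; the 6 between AF with MNA and AF became 2, 0 and 1; the 53 between AF with MNA and PF became 22 with no filter and 0 with the block. At the threshold of the methods, counts of 527, 242 and 477 became 249, 99 and 229 with the limma coefficient as the fold change, 1183, 676 and 1105 with no filter, 265, 81 and 228 at a mean of at least 2 FPKM, and 993, 572 and 837 with all gene entries. Scaling to a common median changed no member's call. With 3 libraries a group, intervals of Nr1d1 and Dbp span more than a log2 unit on each side of their value between AF and PF.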
